A study of Mus musculus with 24 samples.

Results

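The beta-defensin genes of the mouse were followed through RNA-seq libraries of adipose tissue. The members were all genes of the deposited count table whose GENCODE symbol is Defb followed by a digit, 43 of 54232 genes, of which 42 are protein-coding and 1, Defb44-ps, is a pseudogene. The rule used the symbol alone and no measured value. The tissue came from male C57BL6 mice described as 10 weeks old, 6 in each of 4 groups, with 1 library from each mouse. The Control group had a sham operation and the PNx group a partial nephrectomy, in which the poles of the left kidney were ligated and the right kidney was removed. Both of these groups received a lentivirus for GFP. The NaKtide group (sham operation) and the PNx+NaKtide group (partial nephrectomy) received a lentivirus for NaKtide, a peptide that blocks the signaling between the Na,K-ATPase and the kinase Src. Every animal thus carried a lentivirus, given intraperitoneally at 100 µL, with the adiponectin promoter, which is most active in adipocytes, in front of the transgene. The fat was visceral according to the methods of the study, and the labels name no depot.

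Beta-defensins are small, secreted, cationic peptides. Each is made as a precursor with a signal peptide, and the mature peptide is held together by disulfide bonds between 6 cysteines at a regular spacing. They lyse microbes, some attract immune cells through the chemokine receptor Ccr6, and a large part of the mouse family is known for expression in the epididymis, the duct in which sperm mature, where several members bind to the sperm surface. A smaller set, including Defb1, Defb3, Defb4 and Defb14, is known from the epithelia of skin, airway and kidney.

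In the coordinates of GRCm38 the members lay on 4 chromosomes in 5 clusters, taken as runs of members with less than 1 Mb between neighbours. Chromosome 1 held 3 members within 55.1 kb, chromosome 2 held 11 within 164 kb, chromosome 8 held 14 in a first run and 10 in a second, and chromosome 14 held 5 within 80.6 kb. In the chromosome 2 cluster lie Defb22 (ENSMUSG00000027468, chr2:152485663-152490138, minus strand), Defb28 (ENSMUSG00000074679, chr2:152518255-152521447, plus strand), Defb19 (ENSMUSG00000050645, chr2:152576086-152580312, minus strand) and Defb36 (ENSMUSG00000044863, chr2:152604327-152612729, plus strand). Defb48 (ENSMUSG00000075574, chr14:62977524-62984510, minus strand) is at the edge of the chromosome 14 cluster, and Defb2 (ENSMUSG00000006570, chr8:21839926-21843482, plus strand) lies in the second run of chromosome 8. A coding sequence was annotated for 42 members, with a length of 174 to 561 bases and a median of 219. In 37 of the 42 the translated frame held the 6 cysteine codons at the spacing of the family, and in 5 (Defb22, Defb46, Defb8, Defb33 and Defb50) it did not under the spacing searched. Identity between coding sequences had a median of 48.2% over 861 pairs and was highest for Defb34 and Defb15, at 91.1%. The coding sequences of 5 members on which the results turn are given from the GENCODE annotation, 5′ to 3′, with the 6 cysteine codons of the motif in capitals, and for Defb22, where the spacing was not found, with all cysteine codons of the part shown in capitals. Defb36 is the short, typical form. Defb20 and Defb48 are well counted members of other positions. Defb22 and Defb28 are members whose levels parted from that of Defb36 in a set of libraries.
Defb36: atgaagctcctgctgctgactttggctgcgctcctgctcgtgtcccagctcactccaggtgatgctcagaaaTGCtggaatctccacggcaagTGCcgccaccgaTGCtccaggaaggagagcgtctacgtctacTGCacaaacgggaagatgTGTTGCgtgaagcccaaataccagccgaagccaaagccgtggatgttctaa
Defb20: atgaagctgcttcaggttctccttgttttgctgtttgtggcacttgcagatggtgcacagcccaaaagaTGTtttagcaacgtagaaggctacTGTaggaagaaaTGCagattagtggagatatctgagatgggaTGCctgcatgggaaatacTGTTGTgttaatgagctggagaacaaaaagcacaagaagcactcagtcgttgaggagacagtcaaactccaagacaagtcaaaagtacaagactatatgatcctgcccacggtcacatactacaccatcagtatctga
Defb48: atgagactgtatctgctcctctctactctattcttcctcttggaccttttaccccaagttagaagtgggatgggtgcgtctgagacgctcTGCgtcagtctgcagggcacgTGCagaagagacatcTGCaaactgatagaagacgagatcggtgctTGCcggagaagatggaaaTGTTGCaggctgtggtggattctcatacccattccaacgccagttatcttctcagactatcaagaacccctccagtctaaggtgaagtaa
Defb28: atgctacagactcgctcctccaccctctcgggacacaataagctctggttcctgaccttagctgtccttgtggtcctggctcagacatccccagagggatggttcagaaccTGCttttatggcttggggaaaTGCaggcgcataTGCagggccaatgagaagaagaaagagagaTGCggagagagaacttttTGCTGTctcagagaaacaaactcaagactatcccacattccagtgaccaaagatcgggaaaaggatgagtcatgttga
Defb22, first 240 bases: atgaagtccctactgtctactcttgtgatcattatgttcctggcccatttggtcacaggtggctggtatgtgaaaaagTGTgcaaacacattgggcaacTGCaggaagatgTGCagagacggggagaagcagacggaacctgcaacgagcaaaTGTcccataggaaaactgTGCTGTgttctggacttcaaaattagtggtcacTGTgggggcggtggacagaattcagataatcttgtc

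Defb22 encodes a long precursor of 179 residues, against 67 for Defb36, and 28.5% of the aligned columns of these 2 coding sequences were identical. Of the 99 codons of Defb22 behind the part shown, 65 encode alanine, serine or threonine, and the protein is known as a heavily glycosylated coat protein of sperm.

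Upstream sequence was matched by symbol in RefSeq (GRCm38.p6) for 29 of the 43 members, with 30 start sites in all. No entry was matched for Defb1, Defb12, Defb14, Defb18, Defb19, Defb2, Defb25, Defb34, Defb35, Defb37, Defb4, Defb40, Defb44-ps and Defb50. Within the 250 bases before the start, the letters AGAACA, an arm of the androgen response element, were found on either strand in 14 of 30 windows (46.7%), against 16.1% of 32851 windows of the same length over all genes. The whole element, AGAACA and TGTTCT with 3 bases between them, which contains this arm, was in 0 of 30 and in 3 of 32851. TATAAA was found in 5 of 30 (16.7%, against 12.4%), and the E-box CANNTG in 22 of 30 (73.3%, against 66.2%). These are letter matches and not measured sites. Around AGAACA or its complement the windows of Defb3, Defb8 and Defb46 are much alike, as are those of Defb10 and Defb11. The matches among the members are thus not independent of each other. The windows of 4 members are given because their levels are compared further on, with AGAACA or its complement TGTTCT in capitals.
Defb36, chr2:152604077-152604326, plus strand: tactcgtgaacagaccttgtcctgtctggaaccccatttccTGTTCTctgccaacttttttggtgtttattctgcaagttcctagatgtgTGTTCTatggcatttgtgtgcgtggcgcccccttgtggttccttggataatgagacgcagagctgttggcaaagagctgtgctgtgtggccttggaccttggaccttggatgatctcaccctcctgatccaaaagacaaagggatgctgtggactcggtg
Defb48, chr14:62984511-62984760, minus strand: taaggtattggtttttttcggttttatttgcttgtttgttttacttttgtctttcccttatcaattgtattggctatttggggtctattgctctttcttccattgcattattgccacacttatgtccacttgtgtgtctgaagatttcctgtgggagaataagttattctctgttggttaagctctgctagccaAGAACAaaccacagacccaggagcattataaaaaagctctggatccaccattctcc
Defb23, chr2:152464621-152464870, minus strand: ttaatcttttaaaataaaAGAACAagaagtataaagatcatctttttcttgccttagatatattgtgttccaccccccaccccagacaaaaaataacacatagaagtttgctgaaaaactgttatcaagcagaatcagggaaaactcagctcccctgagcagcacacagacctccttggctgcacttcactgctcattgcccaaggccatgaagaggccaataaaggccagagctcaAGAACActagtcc
Defb22, chr2:152490139-152490388, minus strand: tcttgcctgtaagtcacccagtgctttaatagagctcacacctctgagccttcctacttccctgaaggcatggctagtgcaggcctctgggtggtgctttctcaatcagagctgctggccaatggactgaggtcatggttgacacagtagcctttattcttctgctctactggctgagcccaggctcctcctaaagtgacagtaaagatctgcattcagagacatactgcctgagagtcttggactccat

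The letters stood at 209 and 160 bases before the start of Defb36, at 56 bases before that of Defb48 (with TATAAA at 30), and at 232 and 13 bases before that of Defb23. The window of Defb22 held none.

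The libraries held 679250 to 2979505 counts in genes. Levels are given as CPM, counts relative to the library total after trimmed-mean scaling, and comparisons between genes as the FPKM deposited by the authors, which is also relative to gene length. A count of 0 allows a level of up to 3 counts, which was 0.739 to 5.91 CPM depending on the library, and this limit covers counting error only. In a principal component analysis of all genes, PNx 1, PNx 2 and PNx 3 stood apart on the first component (44.8% of the variance, at 191 to 234, against -96.4 to 77.8 for the other libraries) and PNx 6 and NaKtide 6 on the second (16.2%, at 184 and 175, against -47.7 to 33.2). The closest pair of libraries of a group, Control 5 and Control 6, differed by a chi-square of 1.57 per degree of freedom, so no library was counted as a repeat of another. For the labelled tissue, 10 adipocyte genes all had counts, with a sum of 91.5 to 5621 CPM per library. The presence of counts does not by itself check the tissue. The sum of 20 epididymis genes, given further on, was above the adipocyte sum in 21 of 24 libraries. Of genes with at least 1 exon base on the opposite strand of another gene (16.8% of the genes matched to the annotation) the share of all counts was 79.9%, and the strand setting of the counting was not given. Among the beta-defensins this touched Defb15 alone, which overlaps Gm36879 by 200 bases. The other 42 members shared no exon base with a gene on the opposite strand.

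Of the 43 members, 41 had at least 1 count and 2 (Defb44-ps and Defb8) had 0 in every library. The family took 51459 counts in all, and 30 members passed the filter of more than 10 counts over the 24 libraries. The other 11 members with a count had between 1 and 10. The chromosome 2 cluster held 40380 counts, 78.5% of the family, and all 11 of its members passed. The chromosome 14 cluster held 14.1%, with all 5 members passing. The second run of chromosome 8 held 4.14%, with 8 of 10 passing, the first run 1.71%, with 4 of 14, and chromosome 1 1.58%, with 2 of 3. Defb19 (16788 counts) and Defb36 (13684 counts), both in the chromosome 2 cluster, together took 40.9 to 70.9% of the family's counts in the Control libraries.

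Per length, Defb19 had the highest median, 1048 FPKM, with a range of 6.88 to 2468 over the 24 libraries. Defb36 followed with a median of 799 FPKM (5.79 to 2407). A wide step lay below this pair. Defb48 had a median of 164 FPKM, Defb20 136, Defb47 125 and Defb15 114, and the ranges of these 4 overlapped almost entirely, so their order is not separated by the spread between libraries. Defb25 (63.5 FPKM), Defb18 (46.8), Defb23 (43.7), Defb28 (26.6) and Defb39 (23.9) came next, and Defb22 had a median of 21.5 FPKM but a maximum of 181. Defb42, whose annotated exons add up to 2425 bases, had a median of 21.3 FPKM. On this scale 5 of the 6 highest members belong to the chromosome 2 and 14 clusters.

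The members best known from skin, airway and mucosa were near 0. Defb3 had 35 counts over all 24 libraries, Defb14 9, Defb4 4 and Defb6 1. Defb1, a constitutive epithelial defensin also made in kidney and bladder, had 149 counts, with 0 to 8.64 CPM per library. The alpha-defensins, which are made by Paneth cells of the gut and share the antimicrobial role but not the cysteine pairing, had 0 counts for 17 of 22 genes, and their sum did not exceed 2.04 CPM in any library. Spag11b, an epididymal gene with a beta-defensin-like domain in the chromosome 8 cluster, had a median of 87.8 CPM and a maximum of 182.

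The summed level of the 43 genes differed widely between libraries. In Control it was lowest at 1427 CPM, with a median of 1660.4 and a highest value of 2219. In NaKtide 5 libraries lay between 1419 and 1738 CPM and NaKtide 6 was at 14.9. The PNx libraries were at 35.2, 303, 393, 2504, 2171 and 56.6 CPM for PNx 1 to PNx 6. In PNx+NaKtide the lowest was 1062, the median 1284 and the highest 2657 CPM. The Control and PNx+NaKtide libraries were thus all at 1062 CPM or above, the PNx libraries held both the second highest and the second lowest sum of the series, and each pair of groups overlapped. The 5 libraries with the lowest sums were those that stood apart in the principal components. As this is bulk RNA, fewer cells of a type and less RNA per cell cannot be told apart.

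**Figure D1:**
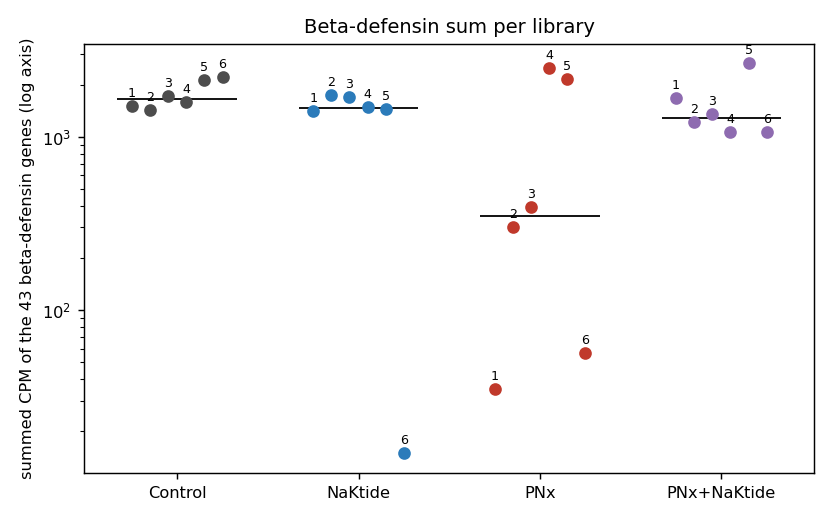
Each point is the summed level of the 43 beta-defensin genes in 1 library (CPM, log axis), numbered by replicate and grouped on the horizontal axis, with a line at the median of each group of 6. NaKtide 6 (14.9), PNx 1 (35.2), PNx 6 (56.6), PNx 2 (303) and PNx 3 (393) lie below the other 19 libraries, which start at 1062.

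The low sums were shared by the main members. Defb36, a member known from the epididymis, ranged from 247 to 496 CPM in Control, with a median of 422. In NaKtide it was at 2.59 CPM in NaKtide 6 and at 300.2 to 683 in the others. In PNx it was at 4.19, 75.9, 52.2, 844, 577 and 3.77 CPM for PNx 1 to PNx 6. In PNx+NaKtide 5 libraries lay between 365 and 1076 CPM, and PNx+NaKtide 6 was at 6.79. The groups overlapped, and the libraries with little Defb36 were the 5 of low sum with PNx+NaKtide 6 added.

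Defb19 is known from Sertoli cells and from the epididymis. It ranged from 369 to 730.2 CPM in Control (median 641), from 399.6 to 444 in NaKtide 1 to NaKtide 5 with 2.59 in NaKtide 6, and from 359 to 912 in PNx+NaKtide (median 454). In PNx it was at 3.45, 105, 68.4, 1018, 659 and 3.40 CPM for PNx 1 to PNx 6. PNx 4 held the highest value of the series and PNx 6 the second lowest. PNx+NaKtide 6, which had almost no Defb36, had 624.6 CPM of Defb19.

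**Figure D2:**
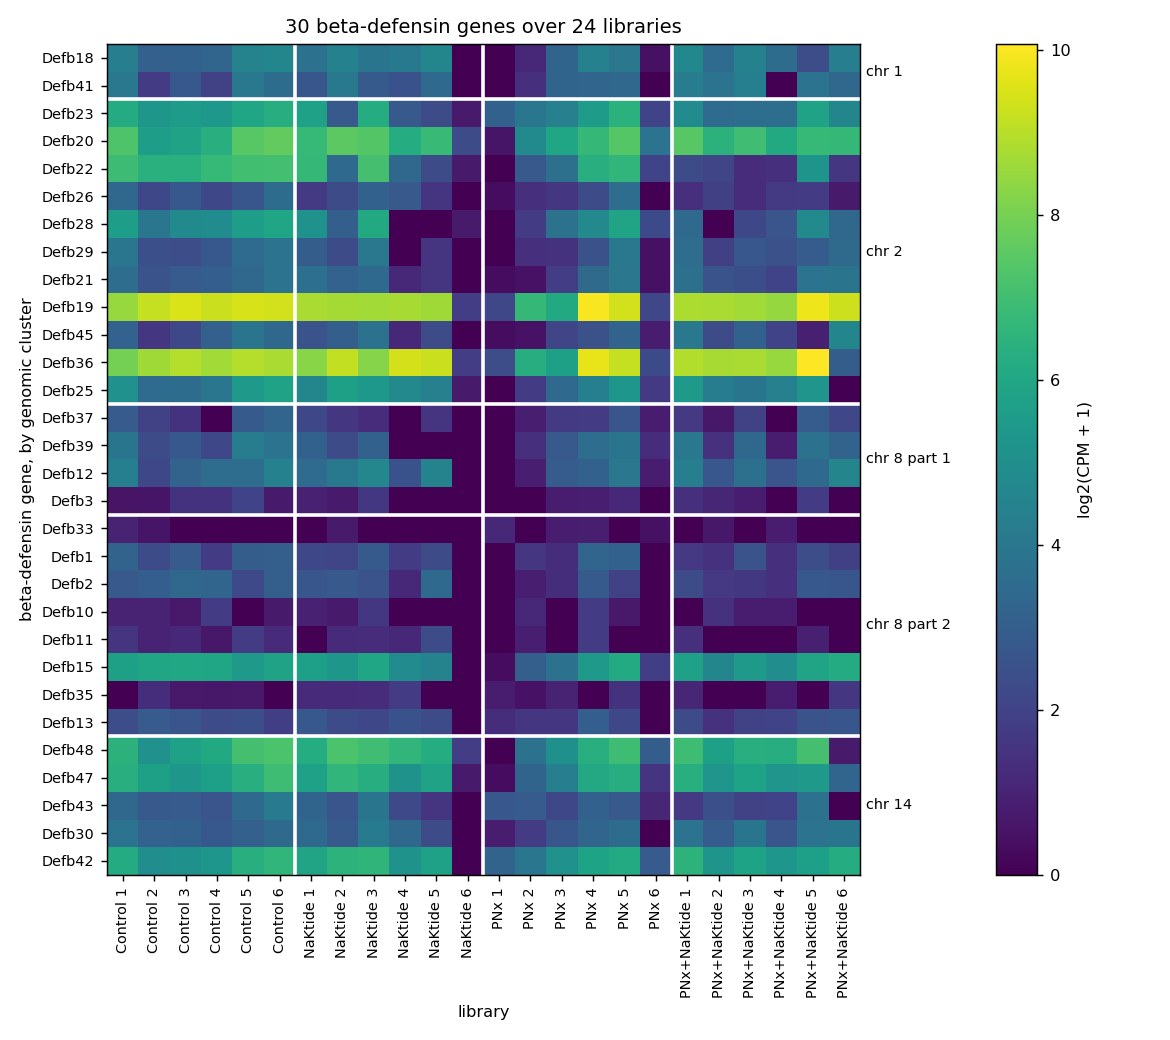
Rows are the 30 beta-defensin genes that passed the filter, in genomic order with white lines between clusters, columns are the 24 libraries with white lines between groups, and colour is log2(CPM + 1). NaKtide 6 and PNx 1 and 6 are dark through most rows, and Defb22, Defb23 and Defb28 are dark in single libraries whose Defb19 and Defb36 rows are bright.

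Defb20, a member known from the head of the epididymis, stayed within its Control range in PNx 3 and PNx+NaKtide 6. It ranged from 49.0 to 198 CPM in Control (median 118), from 75.1 to 186 in NaKtide apart from 3.88 in NaKtide 6, and from 69.1 to 173 in PNx+NaKtide. In PNx it was lowest in PNx 1, at 0.493 CPM, had a median of 43.6 and was highest in PNx 5, at 172. The groups overlapped.

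On chromosome 14, Defb48 ranged from 33.5 to 149 CPM in Control (median 78.2), from 2.59 to 148 in NaKtide (median 86.0), from 0 to 122 in PNx (median 22.7) and from 0.679 to 138 in PNx+NaKtide (median 79.1). Defb47 ranged from 39.1 to 122 CPM in Control (median 66.4), from 0.647 to 98.8 in NaKtide (median 53.9), from 0.246 to 77.2 in PNx (median 13.7) and from 8.83 to 78.6 in PNx+NaKtide (median 39.6). Both had their lowest NaKtide value in NaKtide 6 and their lowest PNx+NaKtide value in PNx+NaKtide 6, where Defb48 had 1 count and Defb47 13. Defb42, which shares that cluster, ranged from 30.02 to 97.04 CPM in Control (median 55.9), from 0 to 94.96 in NaKtide (median 55.9), from 6.42 to 69.5 in PNx (median 24.05) and from 36.2 to 89.1 in PNx+NaKtide (median 53.9). It kept 74.7 CPM in PNx+NaKtide 6, within its Control range. Defb25, a member of the chromosome 2 cluster, ranged from 10.5 to 55.5 CPM in Control (median 24.004), from 0.647 to 52.4 in NaKtide (median 24.7), from 0 to 38.0 in PNx (median 6.13) and from 0 to 40.96 in PNx+NaKtide (median 19.2). Its 0 in PNx+NaKtide 6 stood beside the single count of Defb48. For each of these 4 members the groups overlapped.

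Defb15, the leading member of the second run on chromosome 8, ranged from 41.9 to 64.5 CPM in Control (median 57.2), from 0 to 62.1 in NaKtide (median 33.8), from 0.246 to 71.3 in PNx (median 10.1) and from 23.4 to 73.3 in PNx+NaKtide (median 47.3), with the highest value in PNx+NaKtide 6. Since 37.2% of its 50-base stretches also occur in other genes, and Gm36879 lies on its opposite strand, its counts are uncertain. Defb12 led the first run, with 3.50 to 20.7 CPM in Control (median 11.1), 0 to 24.4 in NaKtide (median 13.1), 0 to 14.8 in PNx (median 3.68) and 5.37 to 23.1 in PNx+NaKtide (median 11.1). On chromosome 1, Defb18 ranged from 7.51 to 23.4 CPM in Control (median 13.9), from 0 to 23.6 in NaKtide (median 14.9), from 0 to 20.4 in PNx (median 4.90) and from 4.16 to 24.9 in PNx+NaKtide (median 14.9). Both were at 0 in NaKtide 6 and PNx 1, and the groups overlapped for all 3 genes. Defb2, Defb9, Defb10 and Defb11 share 50-base stretches with each other, so the split of counts among them is also uncertain.

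PNx 1 kept a different remainder from the other low libraries. Of its 143 family counts, 23.1% were of Defb42, 21.7% of Defb23 and 16.1% of Defb43, against 9.79% of Defb19 and 11.9% of Defb36. In the Control libraries Defb43 held 0.330 to 0.724% of the family. By level, Defb43 was at 5.67 CPM in PNx 1, within its Control range of 5.25 to 16.1. Defb42 (8.13 CPM) and Defb23 (7.64 CPM) lay below their Control ranges there. In NaKtide 6 all 23 family counts came from 9 members, and 6 of them from Defb20. In PNx 6, which had 150 counts, Defb20 held 23.3% and Defb19 6.00%.

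Within the libraries whose sum was high, the members did not move as a block. Defb22 ranged from 83.4 to 133 CPM in Control, with a median of 113. In NaKtide it was at 105 CPM in NaKtide 1 and 135 in NaKtide 3, but at 9.95, 9.69 and 3.94 in NaKtide 2, NaKtide 4 and NaKtide 5, and at 0.647 in NaKtide 6. In PNx it was at 0, 6.06, 12.1, 79.3, 96.8 and 3.02 CPM for PNx 1 to PNx 6. In PNx+NaKtide it was at 3.87, 3.34, 1.43, 1.54, 36.6 and 2.04 CPM for PNx+NaKtide 1 to PNx+NaKtide 6. Every Control library thus lay above every PNx+NaKtide library, and NaKtide and PNx held both high and low libraries. Of the 19 libraries with a sum of at least 1062 CPM, 8 had less than 10 CPM of Defb22, and the next one up was at 36.6.

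The same 8 libraries kept Defb36, except PNx+NaKtide 6. Expressed against Defb36, Defb22 had 16.8 to 47.8 counts per 100 counts of Defb36 in Control. NaKtide 1 and NaKtide 3 had 33.3 and 45.1, whereas NaKtide 2, NaKtide 4 and NaKtide 5 had 1.75, 1.42 and 0.635. PNx+NaKtide 1 to PNx+NaKtide 5 had 0.813, 0.777, 0.321, 0.421 and 3.40. PNx 1 to PNx 6 had 0, 7.98, 23.2, 9.40, 16.8 and 80, so PNx 4, a library of high sum, lay below the Control range. NaKtide 6 and PNx+NaKtide 6 had 25 and 30, within that range. The ratios of PNx 1, PNx 6, NaKtide 6 and PNx+NaKtide 6 rest on 17, 10, 4 and 10 counts of Defb36. As a share of the counts of the family, Defb22 held 4.82 to 7.86% in Control and 0.105 to 1.38% in PNx+NaKtide. The ratio within a library does not depend on the scaling between libraries.

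Defb23 and Defb28, which lie on either side of Defb22 in the chromosome 2 cluster, went with it in part. Defb20, which lies between Defb23 and Defb22, did not. It was at 186, 75.1 and 112 CPM in NaKtide 2, NaKtide 4 and NaKtide 5, within its Control range of 49.0 to 198. Defb23, known in the rat as a sperm-binding defensin, ranged from 39.5 to 75.6 CPM in Control (median 53.6) and from 3.02 to 84.3 in PNx (median 17.4). It was at 52.7 and 74.7 CPM in NaKtide 1 and NaKtide 3, but at 5.97, 6.05 and 3.94 in NaKtide 2, NaKtide 4 and NaKtide 5. In PNx+NaKtide it ranged from 10.6 to 54.9 CPM (median 17.6), so it did not separate from Control. Defb28 ranged from 14.5 to 59.6 CPM in Control (median 38.3) and from 0 to 58.8 in PNx (median 8.19). It was at 34.2 and 68.4 CPM in NaKtide 1 and NaKtide 3 and at 7.30, 0 and 0 in NaKtide 2, NaKtide 4 and NaKtide 5. In PNx+NaKtide it was at 9.96 CPM or less in 5 libraries and at 26.6 in PNx+NaKtide 5. Defb26, a member of low level between Defb22 and Defb28, ranged from 3.50 to 10.7 CPM in Control and from 0.679 to 2.79 in PNx+NaKtide, without overlap.

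**Figure D3:**
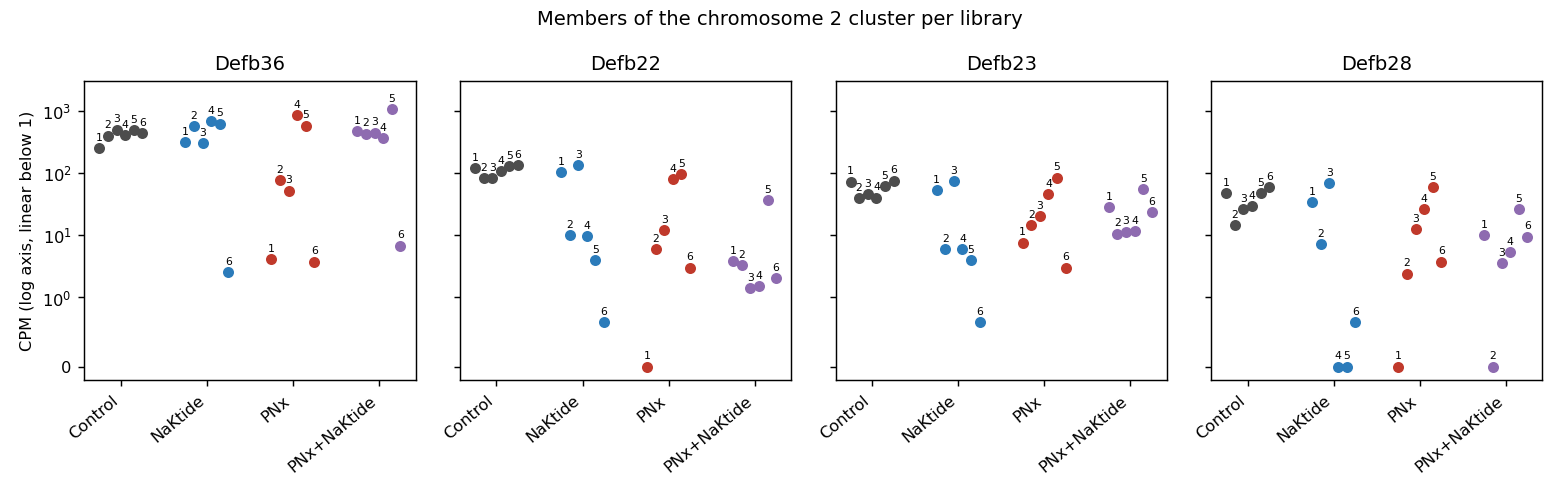
Each panel gives 1 member of the chromosome 2 cluster in the 24 libraries, numbered by replicate, in CPM on a log axis that is linear below 1. Defb36 is low in NaKtide 6, PNx 1, 2, 3 and 6 and PNx+NaKtide 6, while Defb22 is low in addition in NaKtide 2, 4 and 5 and in PNx+NaKtide 1 to 4.

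Over the 24 libraries, the Spearman correlation between pairs of the 30 members had a median of 0.51, from -0.35 to 0.96 over 435 pairs. It was 0.55 in the median for the 100 pairs within a cluster and 0.49 for the 335 pairs between clusters. The closest pair was Defb25 and Defb48 (0.96), which lie on chromosomes 2 and 14, followed by Defb20 and Defb42 (0.95). Defb22 was closest to Defb28 (0.87) and Defb23 (0.82), whereas its correlation with Defb36, in the same cluster, was 0.29. These are descriptions over the same libraries, which share depth and the 5 low libraries.

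The first comparison asked what partial nephrectomy did in mice with the GFP virus. In PNx against Control, the edgeR quasi-likelihood test called 0 of the 30 tested members at a BH-adjusted p-value of 0.1, where 0.0766% of all 26116 genes tested were called. At an unadjusted p-value of 0.05 it gave 1 member, Defb2, where 25.4% of all genes passed (6.88% lower and 18.5% higher). The fitted change was negative for 28 of 30 members, with a median log2 fold change of -0.99 (standard errors 0.62 to 1.09), beside a median of 0.36 over all genes tested. On this scale 29 of the 30 members lay below the median of all genes. That median depended on the scaling, at 0.36 with trimmed means, 0.76 with DESeq2 size factors and 0.70 with library totals, and 28 members were negative under each. DESeq2 called 1 of the 30, which was lower, where it called 29.7% of all genes (3.46% lower), and limma on log2(FPKM + 1) or log2(FPKM + 0.1) called 0.

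Defb2, an epithelial defensin of the second run on chromosome 8, had 3.70 to 9.47 CPM in Control (median 7.18) and 0, 0.808, 1.51, 6.28, 2.97 and 0 CPM in PNx 1 to PNx 6. The PNx values lay below the Control median in all 6 libraries and overlapped the Control range at 1 library. Its log2 fold change was -2.02 ± 0.76 (SE, 95% interval -3.51 to -0.52), with an unadjusted p-value of 0.0132 and a BH-adjusted p-value of 0.142 by edgeR. DESeq2 gave -1.76 and a BH-adjusted p-value of 0.0472, and the adjusted values over all alternatives ranged from 0.0397 to 0.54, the highest without PNx 1 to PNx 3. The gene had 161 counts over all libraries, and 20.7% of its 50-base stretches occur in other genes.

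The well counted members had wide errors in this comparison. Fold changes of single members are given where they exceed their standard error, which that of Defb36 did not. Defb19 had a log2 fold change of -0.98 ± 0.91 (SE), Defb20 -0.92 ± 0.74, Defb42 -0.91 ± 0.66, Defb47 -1.32 ± 0.83, Defb48 -1.07 ± 0.92 and Defb22 -1.75 ± 1.09, and none passed (edgeR BH-adjusted p-values 0.290 to 0.476). Of these 6, Defb19 exceeded its Control range in 1 PNx library, and the other 5 did not. Without PNx 5 the test called 6 members (Defb2, Defb12, Defb29, Defb15, Defb45 and Defb26), all lower in PNx, beside 23.2% of all genes (6.99% lower). Without PNx 4 it called 2 (Defb2 and Defb11), both lower, beside 33.2% of all genes (10.1% lower). Without PNx 1 to PNx 3 it called 0 of 29, with a median log2 fold change of -0.40 beside -0.05 over all genes.

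The next comparison asked what NaKtide did in mice with the nephrectomy. In PNx+NaKtide against PNx, edgeR and DESeq2 called 0 of 30 members (0% of all genes were called by edgeR and 5.8% by DESeq2), and 1 member, Defb45, had an unadjusted p-value below 0.05 in the direction of a higher level, beside 12.7% of all genes (4.07% higher). The fitted change was positive for 21 members and negative for 9, with a median of 0.81 beside -0.37 over all genes. Defb45 was at 0.246 to 8.32 CPM in PNx and at 0.832 to 23.8 in PNx+NaKtide, so the groups overlapped. Its log2 fold change was 1.71 ± 0.80 (SE), with an edgeR BH-adjusted p-value of 0.388. Defb22 had the most negative value, -2.02 ± 1.14 (edgeR BH-adjusted p-value 0.429). Without PNx 1 to PNx 3 the median of the members was 0.07.

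In NaKtide against Control, which asked what NaKtide did in sham-operated mice, edgeR and DESeq2 called 0 of 30 members (0% of all genes by edgeR and 0.0115% by DESeq2). At an unadjusted p-value of 0.05 edgeR gave 0 members, beside 3.95% of all genes. The fitted change was negative for 27 of 30, with a median of -0.55 beside 0.00 over all genes, and without NaKtide 6 for 21 of 30, with a median of -0.28. Defb23 had -1.19 ± 0.77 (SE) and Defb22 -1.29 ± 1.07.

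In PNx+NaKtide against NaKtide, 0 of 30 members were called by edgeR (0% of all genes) or DESeq2 (0.00766%), with 15 fitted changes in each direction and a median of 0.01 beside 0.04. Defb22 alone had an unadjusted p-value below 0.05, beside 4.09% of all genes (2.58% lower), with a log2 fold change of -2.48 ± 1.15 (SE) and an edgeR BH-adjusted p-value of 1. The interaction, which compares the effect of nephrectomy with and without NaKtide, was called for 0 of 30 members by edgeR (0% of all genes) and by DESeq2 (0.36%). Its fitted values were positive for 27 of 30, with a median of 0.96 beside -0.35, and 0 members had an unadjusted p-value below 0.05 by edgeR, beside 9.27% of all genes. These contrasts share groups, so their fitted values are not independent of each other.

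PNx+NaKtide against Control was added after the values of the members had been seen. By edgeR and DESeq2 0 of 30 members were called (0% of all genes by edgeR and 0.126% by DESeq2), and 2, Defb22 and Defb26, had an unadjusted p-value below 0.05 by edgeR, both lower, beside 3.61% of all genes (1.98% lower). Defb22 had a log2 fold change of -3.77 ± 1.201 (SE, 95% interval -6.12 to -1.41), with an unadjusted p-value of 0.00445 and an edgeR BH-adjusted p-value of 0.917. Over the alternatives its log2 fold change ran from -5.42 to -3.50 and its adjusted p-value from 0.184 to 1. Without PNx+NaKtide 5 it was -5.42, with an adjusted p-value of 0.340. Defb26 had -1.72 ± 0.77 and Defb28 -2.04 ± 1.10 (SE). The ranges of Control and PNx+NaKtide did not overlap for 2 of the 30 members, Defb22 and Defb26, beside 0.781% of all genes tested. For the other 5 pairs of groups this held for 0 members, beside 0.314% of all genes for NaKtide against Control, 0.486% for PNx against Control, 0.337% for PNx against NaKtide, 0.0881% for PNx+NaKtide against NaKtide and 0.456% for PNx+NaKtide against PNx.

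**Figure D4:**
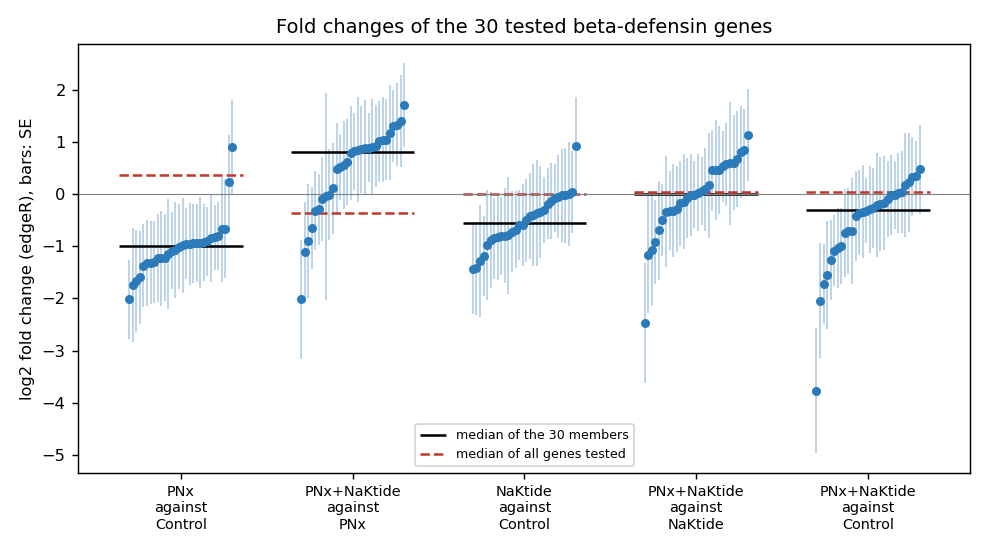
Points are the log2 fold changes of the 30 tested members in 5 comparisons, sorted within each, with bars of 1 standard error. The solid line is the median of the members and the dashed line that of all genes tested, -0.99 against 0.36 for PNx against Control, and the lowest point in PNx+NaKtide against Control is Defb22 at -3.77.

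Marker genes of some other cell types were low in the same libraries as the family, and those of others were not. The 20 epididymis genes of the list, which include the epididymal lipocalins Lcn5, Lcn8 and Lcn10, the secreted peroxidase Gpx5 and the sperm-binding Crisp1, all had counts, with a sum from 57.9 CPM in PNx 1 to 3529 in NaKtide 3. The 5 lowest sums of this list (PNx 1 at 57.9, NaKtide 6 at 94.4, PNx 6 at 244, PNx 2 at 368 and PNx 3 at 934) were in the libraries of the 5 lowest beta-defensin sums. The next library, Control 2, was at 1196. By CPM the epididymis sum was above that of the 10 adipocyte genes in 21 of 24 libraries, the exceptions being NaKtide 6, PNx 1 and PNx 6. The adipocyte sum was highest in PNx 6 (5621) and NaKtide 6 (4575) and lay between 211 and 227 in PNx 1 to PNx 3. No gene of either list passed the test in any of the 6 contrasts by edgeR. In PNx against Control the fitted change was negative for 20 of 20 epididymis genes, with a median of -1.05, and positive for 10 of 10 adipocyte genes, with a median of 1.65. The part of tissue composition in the beta-defensin values was not tested.

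The list named for skin and airway epithelium holds 7 genes, among them the keratins Krt8 and Krt18 and the adhesion gene Epcam. Its 5 lowest sums were also in those libraries (10.99 in NaKtide 6 to 93.4 CPM in PNx 3, with the next library at 181). Krt5, Krt8 and Krt10 of the list overlap genes read from the other strand, which leaves their counts uncertain. Whether these 7 genes mark skin or airway cells in this tissue was not tested. The sum of the testis germ cell genes was highest in NaKtide 6 (656 CPM) and PNx 6 (434), of which Sycp3 alone gave 652 in NaKtide 6. Sycp3 shares exon bases with a gene on its opposite strand, so its counts are uncertain. The spermatid and sperm genes had their highest sums in PNx 3 (1796), PNx 1 (1526) and PNx 2 (1396). The macrophage sum was also lowest in those 5 libraries. It was at 148 in PNx 1, 166 in PNx 3, 237 in PNx 6, 255 in PNx 2 and 285 in NaKtide 6. The next library, Control 1, was at 299.9, and the highest was at 573. In PNx against Control the fitted change was positive for 3 of the 5 macrophage genes and negative for 2, with a median of 0.19. A low sum thus does not mean that each gene of this list was low. Csf1r of this list shares exon bases with a gene on its opposite strand, so its counts are uncertain. Sums of the Sertoli cell and kidney lists went the other way in PNx 1 to PNx 3. The Sertoli cell sum was highest there, at 57.7, 48.5 and 47.9 CPM, with PNx+NaKtide 4 next at 36.1. The kidney sum was highest there as well, at 323, 523 and 323, with PNx+NaKtide 4 next at 163. Both sums were lowest in NaKtide 6, at 3.23 and 0.647. The neutrophil sum lay between 0 and 9.70, with S100a8 at 0 in every library.

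**Figure D5:**
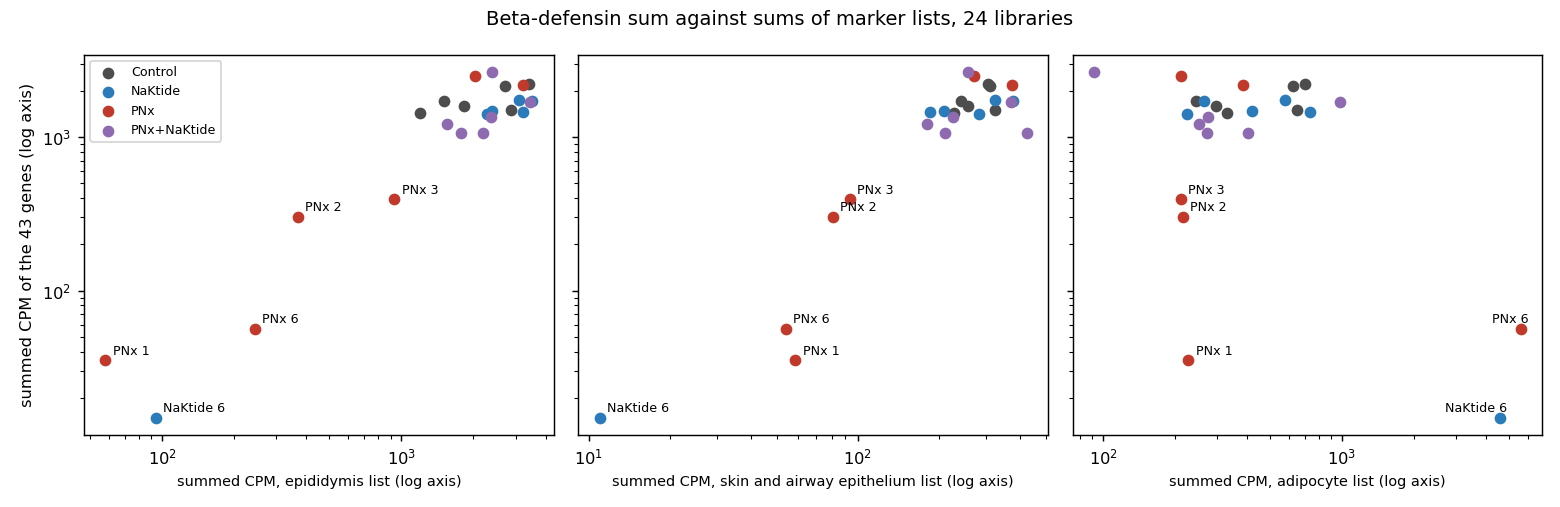
Each point is 1 library, coloured by group, with the summed CPM of the 43 beta-defensin genes on the vertical axis and that of a marker list on the horizontal axis, both on log axes. The 5 libraries named on the plot are lowest for the beta-defensins, for the epididymis list and for the epithelium list, but not for the adipocyte list, where PNx 6 and NaKtide 6 are highest.

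PNx+NaKtide 6, which lacked part of the family, lacked part of the epididymis list as well. Lcn8 was at 2.04 CPM there against 45.5 to 370.1 in Control, Lcn9 at 0, Rnase10 at 0.679, Adam28 at 4.75 and Cst8 at 0.679, while Lcn5 was at 309, Lcn12 at 105, Adam7 at 320.4 and Gpx5 at 813. Of the 30 tested beta-defensins, 11 lay below their Control range in this library, which were Defb36, Defb48, Defb25, Defb43 and Defb47, the chromosome 2 members Defb22, Defb23, Defb26 and Defb28, and the rarely counted Defb3 and Defb11, and 6 lay above it. Defb12, Defb15 and Defb45 were among the latter, and Defb19, Defb20 and Defb42 were within their Control ranges. The share of all tested genes outside their Control range in this library is not given. These counts therefore describe the library and are not a result about the family. Spint4, a protease inhibitor of the epididymis, was at 41.5 to 88.2 CPM in Control, at 1.99 or less in NaKtide 2, NaKtide 4 and NaKtide 5, and at 3.07 or less in PNx+NaKtide 1 to PNx+NaKtide 4, libraries in which Defb22 was also below 10 CPM. Crisp1 was at 3.94 CPM or less in NaKtide 2, NaKtide 4 and NaKtide 5, against 11.7 to 52.9 in Control. The epididymis list as a whole was not low in NaKtide 2, NaKtide 4 and NaKtide 5. Its sums there were 3089, 2396 and 3221 CPM, within the Control range of 1196 to 3428. Spint4 was also among the genes closest to Defb22 over these same libraries.

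Other genes of the innate defence were given by fixed lists. Of 32 further antimicrobial genes, 29 had counts and 27 were tested, and edgeR called 0 in each of the 6 contrasts. Their sum was again lowest in the libraries of the 5 lowest beta-defensin sums (46.8 CPM in PNx 1 to 240.5 in PNx 3, with the next library at 759). By CPM, which is not relative to length, most counts were of the whey-acidic-protein genes Wfdc8 (median 399 CPM), Wfdc10 (190.1) and Wfdc9 (138) and of the siderophore-binding Lcn2 (91.4), whereas S100a8, Reg3b and Reg3g had 0 counts. Wfdc8 shares exon bases with a gene on its opposite strand, so its counts are uncertain. Of 12 reported receptors of beta-defensins, 8 were tested and 0 called. The amino acid transporter chain Slc3a2 gave most of their counts (median 55.3 CPM), and Ccr6, the chemokine receptor, had 14 counts over all libraries.

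The 10 genes outside the family whose CPM over the 24 libraries was most like the family sum, among 11369 genes with a mean of at least 5 CPM, were Ppfibp2 (Spearman correlation 0.93), St6galnac2 (0.92), Lcn10 (0.91), Zyx (0.90), Ap3b2 (0.89), Plscr3 (0.89), Nlrx1 (0.89), Tbc1d8 (0.88), Plekhg3 (0.88) and Rnf180 (0.88). Of these, Lcn10, Ap3b2 and Rnf180 share no exon base with a gene on the opposite strand. For Defb22 alone, a search added after the values were seen, the closest were C230004F18Rik (0.89), Gm26902 (0.88), Abcb5 (0.87), Wfdc13 (0.87), Serpina16 (0.86) and Spint4 (0.86). Each of these 6 was at 12.2 CPM or less in PNx+NaKtide 1 to PNx+NaKtide 4.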

How the data were processed

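RNA of adipose tissue from 24 mice was sequenced as stranded, poly(A)-selected, paired-end libraries. The authors trimmed the reads with Trimmomatic 0.38, aligned them to GRCm38 with HISAT2 2.1.0 and counted reads per gene with GenomicAlignments, and the deposited counts are these raw whole numbers. The deposited FPKM values are the authors' normalized counts times 1 constant per gene, and the function that made them is not given in the sources used here, where DESeq2 1.20.0 is among the tools of the submitters' processing notes. The annotation release and the strand setting of the counting are not given in the sources used here. A further table of normalized counts was not used.

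Gene positions, exon overlaps and coding sequences were taken from GENCODE M21 by gene identifier. The counts were fitted with edgeR 4.0.16 in R 4.3.3 (TMM scaling, robust quasi-likelihood test, 1 mean per group over all 24 libraries, genes with more than 10 counts in total), with BH adjustment over all 26116 genes and a threshold of 0.1. The contrasts were PNx against Control, PNx+NaKtide against PNx, NaKtide against Control, PNx+NaKtide against NaKtide and their interaction, and a sixth was added after the values were seen. The fit was tested on simulated data for PNx against Control, with a log2 change of 2 given to 200 genes above a set mean level. It recovered 38.5% of these genes, and 4.94% of its calls were false. A result of 0 members called therefore does not exclude changes of that size. Alternatives used other scalings and filters, a replicate block, DESeq2 1.42.0, limma 3.58.1 on log2 FPKM and fewer libraries. The members and gene lists were chosen with earlier results of these data known. Values in each group were given for the 12 members of highest mean CPM, for members called in a contrast and for the leading member of each cluster, 13 in all, and others were named with their values where a sentence turned on them. The libraries came from separate mice, and their totals of 679250 to 2979505 counts limit the precision of members with few counts.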

Additional observations from a re-analysis of the deposited data

Results flagged for a closer look

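In groups of 6 libraries, the gap between the lowest or highest library and its neighbour was compared with the whole range of the group. Of 56 such groups, 4 held a library beyond Dixon's limit, and chance passes it in about 1 group in 20. The groups are not independent, as the family sum contains Defb19. The number flagged is therefore not itself a result. The family sum of NaKtide 6 was 14.9 CPM, with the next NaKtide library at 1419. Defb19 in NaKtide 6 was at 2.59 CPM, with the next at 399.6. Defb22 in PNx+NaKtide 5 was at 36.6 CPM, with the next at 3.87. Defb28 in PNx+NaKtide 5 was at 26.6 CPM, with the next at 9.96, a gap of 0.6257 of the range where the limit is 0.625. The adipocyte sum of NaKtide 6 was 4575 CPM and its epididymis sum 94.4 CPM, and the part of tissue composition in these values was not tested.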

How the results depend on the processing

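In PNx against Control the number of beta-defensin genes called was 0, and it was 1 with DESeq2 size factors, 1 by DESeq2 and 1 without PNx 6 and NaKtide 6 together (Defb2 in each). Leaving out 1 library at a time it lay between 0 and 6, with 2 without PNx 4 and 6 without PNx 5, fits that called 33.2% and 23.2% of all genes. The share of all genes called was 33.3% with DESeq2 size factors and 21.8% without PNx 6 and NaKtide 6 together. In the other contrasts it was 0 under every alternative run. With the replicate number as a block, 0 members were called in each contrast. Of the 36 same-numbered pairs, 19 deviated together (correlation over 0.1), and 10 of 24 libraries correlated best with their own number. The median correlation was 0.12 for same-numbered pairs and -0.05 for the other pairs between groups. The main fit did not take the numbers as pairing, and what a shared number stands for was not tested. Over all genes, the number called in PNx against Control was 20, against 8696 with DESeq2 size factors, 4102 with library totals, 7764 by DESeq2 and 1 with the block. Fold changes of single members were recomputed where they exceeded their standard error, for the 13 members of the naming rule and a few named besides, and these 1156 values kept their sign, with 9 past the threshold that were not before. Over all 30 members signs did change, and the number of negative members ran from 21 to 29 in NaKtide against Control and from 8 to 19 in PNx+NaKtide against NaKtide, over the fits that tested all 30. Without Defb19 the median family sum over the libraries was 988 CPM, against 1472 with it.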

Other observations

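Spag11b and Spag11a, which carry a beta-defensin-like domain and lie among the beta-defensins of chromosome 8, had a summed level of 0 to 189 CPM. The 5 lowest sums were in PNx 1 (0), NaKtide 6 (0.647), PNx 6 (9.81), PNx 2 (17.8) and PNx 3 (56.0), in the same 5 libraries as for the family. PNx+NaKtide 6, with 6.79 CPM of Defb36, had 157 CPM of this pair.

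Among the genes whose level over the libraries was closest to that of Defb22, Abcb5, an ABC transporter, was at 4.003 to 19.96 CPM in Control, at 1.99 CPM or less in NaKtide 2, NaKtide 4 and NaKtide 5, and at 0.714 CPM or less in PNx+NaKtide 1 to PNx+NaKtide 6. Npy, the neuropeptide Y precursor, was at 8.51 to 28.8 CPM in Control and at 7.87 CPM or less in NaKtide 2, NaKtide 4 and NaKtide 5 and in PNx+NaKtide 1 to PNx+NaKtide 5, but at 17.0 CPM in PNx+NaKtide 6, where Defb22 was at 2.04. These genes were chosen after the values of Defb22 were seen.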
